A study of Mus musculus with 20 samples.

Results

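Fetal H3K27me3 peaks that also carried H3K4me1, and no H3K4me3 or H3K27ac, were examined in mouse hematopoietic stem cells (HSCs). H3K27me3 is deposited by Polycomb repressive complex 2 over silenced developmental genes and their regulatory sequences. H3K4me1 is deposited at enhancers, usually before they become active, and H3K27ac is added by p300 and CBP when an enhancer is in use. Distal sequence with H3K4me1 and H3K27me3 but without H3K27ac is known as a poised enhancer, a class first described in embryonic stem cells, where such elements lie near genes of early differentiation. H3K4me3 marks active and bivalent promoters, so its absence sets those aside, while a promoter without an H3K4me3 peak would still be kept.

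The study profiled 4 histone marks by chromatin immunoprecipitation and sequencing (ChIP-seq) in HSCs of B6129SF1 mice, with no genetic change or treatment named in the labels. Fetal HSCs came from the liver at embryonic day 14.5 and adult HSCs from the bone marrow of mice 6 to 8 weeks old. Cells were sorted as lineage-negative, Sca1-positive, cKit-positive and CD135-negative, a gate that holds multipotent progenitors as well as stem cells, and each ChIP used 50000 of them. The labels list 20 samples, with 2 replicates of each mark and of input at each stage, but the lists used here are 1 combined peak list per mark and stage, 8 in all. No value therefore has a replicate error, the read depth behind each list is unknown, and the stage cannot be told apart from the library or the peak calling. Ranges in parentheses after a share are 95% Clopper-Pearson intervals over peaks, which cover counting error only and treat neighbouring peaks as independent. No markers of cell identity can be read from peak lists, so the labelled cell type could not be checked. Coordinates are 1-based on mm9, the build named in the submitters' processing notes.

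The rule kept fetal H3K27me3 peaks on chromosomes 1 to 19 that were narrower than 10000 bp, overlapped a fetal H3K4me1 peak by at least 1 bp, and overlapped no H3K4me3 or H3K27ac peak of either stage. It found 1008 peaks of the 14843 in the fetal H3K27me3 list, or 6.79%, and these are called poised elements below. Chromosomes 1 to 19 held 14579 of the listed peaks, and 14155 of those were under the width limit. Fetal H3K4me1 overlapped 4162 of them, or 29.4%. Most of these carried fetal H3K4me3 or H3K27ac: 2974 overlapped fetal H3K4me3, and 66 more overlapped fetal H3K27ac. Of the 1122 that were left, 108 had adult H3K4me3 and 6 others adult H3K27ac, which left the 1008. Of all 14155 peaks under the width limit, 23.5% had adult H3K4me3. Because the fetal marks and the adult H3K4me3 and H3K27ac chose the elements, fetal values are given as a description. Adult H3K27me3 and adult H3K4me1 were not used by the rule. The lists come from sorted populations, so marks on the same cells and on different cells at a site cannot be told apart.

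Poised elements were broad and well scored. Their median width was 3161 bp, the quartiles were 1610.5 and 5138.5 bp, and the range ran from 293 to 9907 bp. Only 139, or 13.8% (11.7 to 16.1), were narrower than 1000 bp. The score is a value per peak from the authors' caller, with no unit given, at least 50 in every list and piling up at 3100. It is used here only to describe and rank peaks within a list. The median score of poised elements was 757.505, and 78 of them reached 3100 or more. Together they covered 3.60 Mb, or 9.52% of the length under fetal H3K27me3 on these chromosomes.

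Poised elements were larger than fetal H3K27me3 peaks of the same width range that had no fetal H3K4me1 and no H3K4me3 or H3K27ac of either stage. Those 9289 peaks, called K27me3-only peaks here, had a median width of 1018 bp and a median score of 106.9, and 48.8% (47.7 to 49.8) were narrower than 1000 bp. The poised elements resembled in size the 3582 peaks that overlapped fetal H3K4me3, the bivalent peaks, whose median width was 2817 bp and median score 728.11. Unlike the other classes, bivalent peaks could also overlap H3K27ac of either stage and adult H3K4me3. The wider a peak, the more sequence it offers to an overlap of 1 bp, and the part of this in the difference was not tested.

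**Figure D1:**
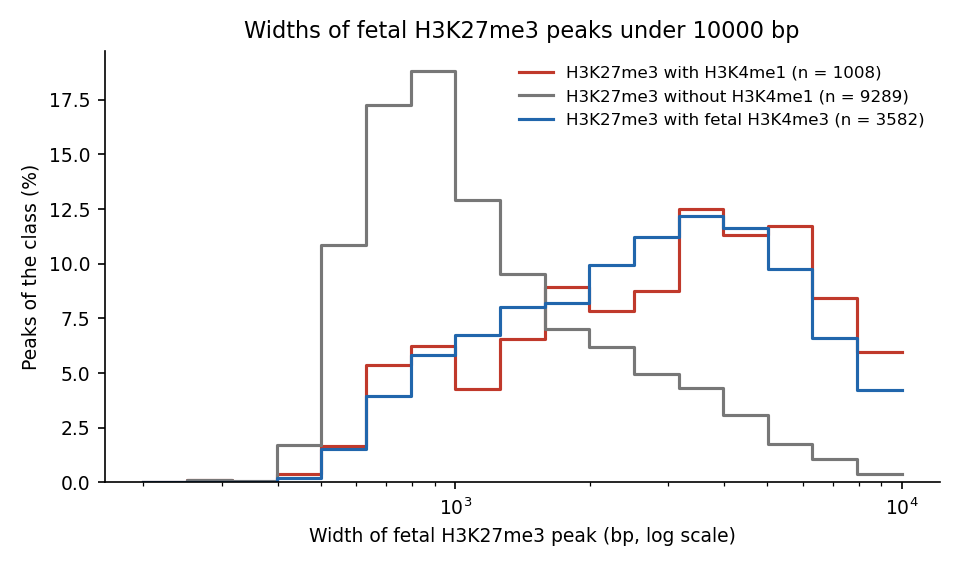
Width of fetal H3K27me3 peaks under 10000 bp (x axis, bp, log scale) against the share of peaks in each class (y axis, %), as step lines for the 1008 poised elements (H3K27me3 with H3K4me1), the 9289 K27me3-only peaks and the 3582 peaks with fetal H3K4me3. Poised elements and peaks with H3K4me3 have medians of 3161 and 2817 bp, and K27me3-only peaks a median of 1018 bp.

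The 2 widest poised elements were on chromosome 3 from 101811561 to 101821467 (9907 bp) and on chromosome 1 from 74992875 to 75002761 (9887 bp), both with a score of 3100. The next wider peaks that met the rest of the rule were on chromosome 2 from 164934247 to 164944325 (10079 bp, score 1563.98) and on chromosome 7 from 146128822 to 146138916 (10095 bp, score 2599.12). In all, 110 peaks at or over the limit met the rest of the rule.

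H3K4me1 was a small island in most poised elements. A single fetal H3K4me1 peak was found in 719 elements, or 71.3% (68.4 to 74.1). There were 2 in 206 elements, 3 in 57 and 4 or more in 26, with a highest number of 6. The median length under H3K4me1 was 428.5 bp, and the median share of the element covered was 15.8%, with quartiles of 8.06% and 31.3%. H3K4me1 spread over at least 50% of the element in 107, or 10.6% (8.78 to 12.7). At the other end, 99 elements had under 200 bp of it, with a lowest value of 2 bp.

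The 1404 fetal H3K4me1 peaks that touched poised elements had a median width of 367.5 bp and a median score of 95.81. For all 92339 fetal H3K4me1 peaks of these chromosomes the medians were 430 bp and 116.58, and for the 41798 distal ones without fetal H3K27me3 and without H3K4me3 or H3K27ac of either stage they were 360 bp and 90.185. The H3K4me1 peaks of poised elements were thus close in width and score to those of other distal sites.

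The H3K4me1 islands lay toward the middle. Counting each contact of an H3K4me1 peak with an element, 1143 of 1416, or 80.7% (78.6 to 82.7), lay inside the element. Another 268 crossed one edge and 5 spanned the whole element. These counts depend on the widths of islands and elements, and their values under random placement were not tested. Along elements scaled to one width, H3K4me1 covered 35.1% of elements just past the centre, and 14.0% and 14.4% in the outermost bins. In the flanks it covered between 3.67% and 5.95% of elements at more than 1 kb from an edge.

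**Figure D2:**
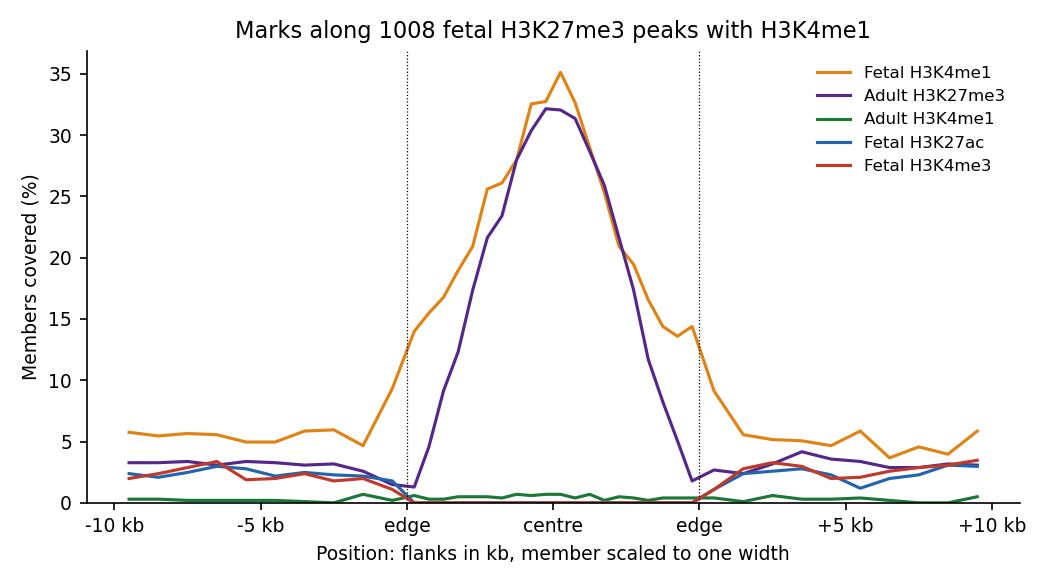
Share of the 1008 poised elements covered by peaks of each list (y axis, %) along the element scaled to one width and in flanks of 10 kb (x axis). Fetal H3K4me1 and adult H3K27me3 peak near the centre, at 35.1% and 32.1%, while fetal H3K27ac and H3K4me3 are at 0 inside the element by the rule.

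In adult HSCs most poised elements still carried H3K27me3, and few carried H3K4me1. An adult H3K27me3 peak overlapped 608 of 1008 elements, or 60.3% (57.2 to 63.4). Over all 14155 fetal H3K27me3 peaks under the width limit the share was 33.8%. An adult H3K4me1 peak overlapped 62 elements, or 6.15% (4.75 to 7.82), against 3.19% of those 14155 peaks. H3K27me3 without H3K4me1 was found at 564 elements, or 56.0% (52.8 to 59.0), and neither mark at 382, or 37.9% (34.9 to 41.0). Both marks were present at 44, or 4.37% (3.19 to 5.82), so that the fetal combination was listed again in the adult at fewer than 1 element in 20. H3K4me1 without H3K27me3 was found at 18, or 1.79% (1.06 to 2.81).

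The adult lists differ from the fetal ones in number and width of peaks. On chromosomes 1 to 19 the adult H3K4me1 list held 12502 peaks with a median width of 193 bp, against 92339 in the fetal list, and its highest score was 515.54. The adult H3K27me3 list held 22831 peaks, more than the fetal 14579, but with a median width of 280 bp. An element without an adult peak is therefore one where none was listed, and loss of the mark cannot be told apart from a weaker library or call.

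Retention of H3K27me3 was higher at higher fetal scores and at greater widths. The 14155 peaks under the width limit were split by score into 5 equal parts. In the lowest part, with scores up to 73.64, adult H3K27me3 was found at 2 of 59 poised elements, or 3.39% (0.413 to 11.7). In the next parts it was found at 4 of 85, or 4.71% (1.30 to 11.6), at 32 of 133, or 24.1% (17.1 to 32.2), and at 116 of 251, or 46.2% (39.9 to 52.6). In the highest part, with scores above 861.564, it was found at 454 of 480, or 94.6% (92.2 to 96.4). All 78 elements with a score of 3100 or more had adult H3K27me3, with a lower bound of 95.4%. With the same peaks split into 5 parts by width, the shares were 9.375%, 8.33%, 22.9%, 50.6% and 93.3% from narrowest to widest. A wider peak also meets an overlap of 1 bp more easily, and the parts of score and width in this were not tested.

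K27me3-only peaks in the same part of the score range were closer to the poised elements than K27me3-only peaks as a whole. In the lowest part, the next and the fourth they had adult H3K27me3 at 4.04% (3.31 to 4.88), 6.81% (5.84 to 7.87) and 44.9% (42.4 to 47.5). In the middle part the share was 16.3% (14.7 to 17.9), against 24.1% for poised elements. In the highest part, which held 480 of the 1008 elements, it was 89.6% (86.9 to 91.8), below the interval of the poised elements. Over all scores the share was 20.1% (19.3 to 21.0), which is 40.2 points below that of the poised elements. When the K27me3-only peaks were weighted to the scores of the poised elements, their share was 56.8%, and the difference was 3.53 points (1.05 to 6.01, normal approximation). Weighting by width gave 50.7% and a difference of 9.65 points (7.03 to 12.3). Bivalent peaks, where H3K27ac was not barred, kept H3K27me3 at 61.3% (59.7 to 62.9), within the interval of the poised elements. Thus H3K27me3 retention varied far more across the 5 parts of the score range than between peaks with and without fetal H3K4me1 in the same part. The parts match scores only coarsely, and the highest ran from 861.564 to 3233.06. A score of 3100 or more was reached by 78 of 1008 poised elements and 12 of 9289 K27me3-only peaks. Scores within the highest part thus still differed between the classes, and the share of this in the remaining difference was not tested.

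**Figure D3:**
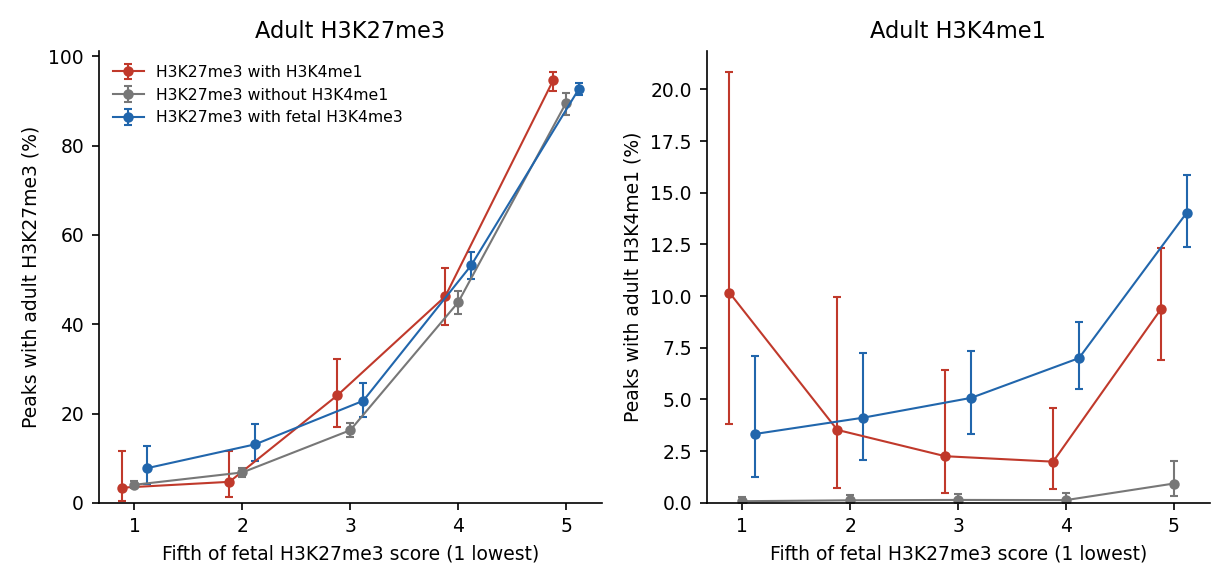
Share of fetal H3K27me3 peaks with adult H3K27me3 (left, y axis, %) and with adult H3K4me1 (right, y axis, %) in 5 equal parts of the fetal H3K27me3 score (x axis), for poised elements, K27me3-only peaks and peaks with fetal H3K4me3. Bars are 95% Clopper-Pearson intervals. On the left all classes are higher at higher scores, from 3.39% to 94.6% for poised elements, and on the right K27me3-only peaks stay below 1%.

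Within a score range, each part was split at its median length under fetal H3K4me1. In the fourth part, elements with at most 410 bp of H3K4me1 had adult H3K27me3 more often than those with more, at 66 of 126, or 52.4% (43.3 to 61.3), against 50 of 125, or 40.0% (31.3 to 49.1). That difference was 12.4 points (0.142 to 24.6, normal approximation, not adjusted for the 5 parts). In the middle part, split at 363 bp, 20 of 67 elements with less H3K4me1 and 12 of 66 with more had adult H3K27me3, a difference of 11.7 points (-2.71 to 26.0). In the highest part, split at 516.5 bp, the counts were 226 of 240 and 228 of 240, a difference of -0.833 points (-4.88 to 3.22). The lowest parts held 2 and 4 elements with adult H3K27me3, with differences of -0.115 points (-9.35 to 9.12) and -4.82 points (-13.8 to 4.18). The sign thus varied between parts, and the interval left out 0 in the fourth part only.

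What the adult list held at these elements was a set of narrow pieces. The 608 elements were covered by 2336 adult H3K27me3 peaks, or 10.2% of the adult list, with a median width of 292 bp and a median score of 96.35. An element with adult H3K27me3 held a median of 3 pieces, with quartiles of 2 and 5 and a highest number of 16. The median length covered was 1270 bp, which was a median of 28.8% of the element. Coverage of at least 10% of the element was seen at 532 of the 1008, and of at least 50% at 78, or 7.74% (6.16 to 9.56). K27me3-only peaks with adult H3K27me3 held a median of 1 piece and were covered over a median of 16.1%. In bivalent peaks the medians were 3 pieces and 28.9%.

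The adult pieces lay toward the middle of the elements, as the fetal H3K4me1 peaks did. Adult H3K27me3 covered 32.1% of elements just before the centre and 1.29% and 1.79% in the outermost bins. A central position was also seen in K27me3-only peaks, which hold no fetal H3K4me1. There the share was 5.67% just past the centre, and 1.18% and 1.08% in the outermost bins. In the 608 elements adult H3K27me3 covered 60.4% of the sequence under fetal H3K4me1 and 27.6% of the rest. Its coverage was higher over the H3K4me1 part in 449 elements and higher outside it in 159. Since both marks lay centrally, the middle 50% of each element was also taken alone. There, in the 535 elements with both kinds of sequence, the shares were 68.9% and 46.2%. H3K4me1 parts were the more covered in 375 elements, the less covered in 145 and equal in 15. Even so, 121 of the 608 elements had no adult H3K27me3 over any of their fetal H3K4me1.

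Adult H3K4me1 was rare at poised elements but rarer at K27me3-only peaks. It was found at 16 of 9289 of those, or 0.172% (0.0985 to 0.280), a difference of 5.98 points. Weighted to the scores of the poised elements the K27me3-only share was 0.511%, and the difference was 5.64 points (4.13 to 7.15, normal approximation). Bivalent peaks had more, at 9.49% (8.55 to 10.5). The 71 adult H3K4me1 peaks in poised elements had a median width of 181 bp and a median score of 58.8, against 62.02 for the whole adult H3K4me1 list, and 60 of them, or 84.5% (74.0 to 92.0), overlapped a fetal H3K4me1 peak. Every element holds fetal H3K4me1 by the rule, and the matching share over the whole adult H3K4me1 list is not given here. The share depended on the lists: it was 24.8% of 109 elements when both stages were held to equal numbers of top-ranked peaks, and 2.28% of the 1008 when at least 200 bp of adult H3K4me1 was asked for.

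The strength of fetal H3K4me1 went with its presence in the adult. Elements were split into 3 equal groups by the highest H3K4me1 score within them. Adult H3K4me1 was found at 5 of 336 elements of the lowest group, or 1.49% (0.485 to 3.44), at 13 of 336 of the middle group, or 3.87% (2.08 to 6.53), and at 44 of 336 of the highest group, or 13.1% (9.68 to 17.2). Adult H3K27me3 was found at 63.7% (58.3 to 68.8), 62.2% (56.8 to 67.4) and 55.1% (49.6 to 60.5) of the same groups.

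Seen from the H3K4me1 peaks, the difference in adult H3K4me1 between those with and without fetal H3K27me3 depended on how the lists were taken. Of the 1404 fetal H3K4me1 peaks in poised elements, 75 had an adult H3K4me1 peak, or 5.34% (4.22 to 6.65). Of the 41798 distal peaks without H3K27me3, 4.56% (4.36 to 4.76) did. The difference was 0.784 points, with joined interval bounds of -0.352 and 2.11. Weighted by H3K4me1 score it was 0.278 points (-0.857 to 1.41), and with peaks at or above the median score of each list it turned to -1.94 points. Holding both stages to the same number of best-scored peaks raised the share in poised elements to 33.6% and the difference to 8.997 points. Over all fetal H3K4me1 peaks, promoters and active enhancers included, the share was 9.26%. Adult H3K27me3 was found over 715 of the 1404, or 50.9% (48.3 to 53.6). Those peaks touch fetal H3K27me3 by the rule, and the matching share over other fetal H3K4me1 peaks is not given here.

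The 4 adult outcomes differed in their fetal values. The 564 elements with H3K27me3 alone had a median width of 4392.5 bp and a median score of 1428.59, with 429 bp of H3K4me1. The 44 with both marks were the widest and best scored, at 5676 bp and 2224.76, and had 1151.5 bp of H3K4me1. The 382 with neither were narrow and low, at 1515 bp and 197.23, with 372.5 bp of H3K4me1. The 18 with H3K4me1 alone had a median width of 1230.5 bp and a median score of 152.27. H3K4me1 covered a median of 48.4% of those 18, against 11.1% of the elements with adult H3K27me3 alone. The same 18 had the shortest median distance to H3K4me3 regions of the 4 groups, at 10.0095 kb with overlapping ranges. The nearest region of 88.9% of them carried fetal H3K27me3, a share of a small group with no interval computed. It was 41.9% for elements with neither mark, 39.4% with H3K27me3 alone and 40.9% with both.

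Elements were followed further by dropping the adult part of the rule, since it removes sites with adult H3K4me3 or H3K27ac. Both are called active marks below, although H3K4me3 also marks bivalent promoters. Of the 1122 peaks chosen by fetal marks alone, 114, or 10.2% (8.45 to 12.1), overlapped adult H3K4me3 or H3K27ac. H3K4me3 without H3K27ac accounted for 92, both marks for 16 and H3K27ac without H3K4me3 for 6. Among the 9369 peaks chosen the same way but without fetal H3K4me1, 80 had an adult active mark, or 0.854% (0.678 to 1.06). Over all 14155 peaks under the width limit, bivalent ones included, the share was 23.8%. Weighted to the scores of the 1122, the share without H3K4me1 was 1.67%, and the difference was 8.49 points (6.63 to 10.4, normal approximation). Weighting by width gave 8.72 points (6.89 to 10.5).

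The adult H3K4me3 and H3K27ac peaks at these sites were low in score. The 107 adult H3K4me3 peaks had a median score of 82.36, against 1487.95 for all adult H3K4me3 peaks, and the 21 adult H3K27ac peaks had a median of 78.61, against 314.38. Fetal H3K4me3 or H3K27ac just under the authors' threshold cannot be seen in the lists, so that gain at these sites cannot be told apart from a crossing of the threshold. Leaving out peaks with fetal H3K4me3 or H3K27ac within 2 kb gave a share of 9.97%. With peaks at or above the median score of each list the share was 3.78%, while the same number of best-scored peaks at each stage gave 21.6%. Adult H3K27me3 was also present at 59 of the 114, or 51.8% (42.2 to 61.2).

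Most poised elements lay within 100 kb of an H3K4me3 region and few within 1 kb. These regions were the 17586 merged H3K4me3 peaks of both stages. The median distance from an element's edge to the nearest region was 22.7 kb, with quartiles of 8.26 and 61.8 kb. A region lay within 1 kb of 43 elements, or 4.27% (3.10 to 5.70), within 5 kb of 15.7% (13.5 to 18.1), within 10 kb of 29.0% (26.2 to 31.9) and within 100 kb of 86.4% (84.1 to 88.5). K27me3-only peaks were farther away, with a median of 32.1 kb, 25.7% (24.8 to 26.6) within 10 kb and 76.4% (75.5 to 77.3) within 100 kb. Distances of 0 are barred by the rule in both classes. With peaks at or above the median score of each list, which kept fewer H3K4me3 regions, the median for poised elements was 55.8 kb. It was 13.7 kb, with 46.8% within 10 kb, for the 109 elements found with the same number of best-scored peaks at each stage.

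**Figure D4:**
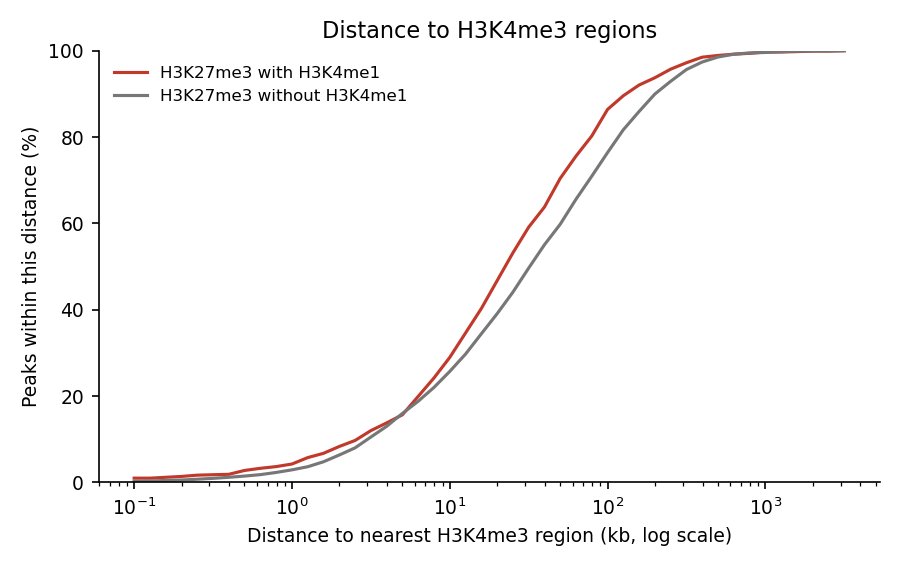
Share of peaks (y axis, %) with an H3K4me3 region within a given distance (x axis, kb, log scale), for poised elements and K27me3-only peaks. The curve of poised elements lies above at 1 kb (4.27% against 2.92%), meets the other near 5 kb (15.7% and 15.9%) and lies above again at 10 kb (29.0% against 25.7%).

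The nearest H3K4me3 regions of poised elements were mixed in state. The nearest H3K4me3 region carried fetal H3K27me3 for 416 elements, or 41.3% (38.2 to 44.4), against 22.5% (21.9 to 23.1) of all 17586 regions. For K27me3-only peaks the share was higher, at 56.5% (55.4 to 57.5). It carried fetal H3K27ac for 55.7% (52.5 to 58.8) of elements and 44.7% (43.7 to 45.7) of K27me3-only peaks, against 71.9% (71.2 to 72.6) of all regions. Poised elements were also nearer to acetylated sequence. A fetal H3K27ac peak lay within 10 kb of 21.7% (19.2 to 24.4) of them, against 11.8% (11.1 to 12.5) of K27me3-only peaks, and an adult one within 10 kb of 18.6% (16.2 to 21.1) against 11.7% (11.0 to 12.3).

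Few poised elements lay next to a large H3K27me3 domain. A fetal H3K27me3 peak of 10000 bp or more lay within 10 kb of 62 elements, or 6.15% (4.75 to 7.82), against 10.9% (10.2 to 11.5) of K27me3-only peaks. A fetal H3K27me3 peak with H3K4me3 lay within 10 kb of 17.6% (15.3 to 20.1), against 22.2% (21.4 to 23.1). Other fetal H3K27me3 peaks were common nearby, covering 20.8% and 19.6% of elements in the first kb of the left and right flanks. The values for K27me3-only peaks were 26.5% and 26.6%. Most elements stood apart from other poised elements. Another poised element lay within 10 kb of 143, or 14.2% (12.1 to 16.5), and within 100 kb of 39.6% (36.5 to 42.7). Joined over gaps of up to 10 kb, they formed 865 single elements, 59 pairs and 6 longer runs. The longest held 6 elements over 26566 bp on chromosome 15 from 73254681 to 73281246. In that run 2 elements had adult H3K27me3 and none had adult H3K4me1.

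Every chromosome from 1 to 19 held poised elements, from 20 on chromosome 16 to 103 on chromosome 11. As a share of the fetal H3K27me3 peaks under the width limit they ran from 5.23% (3.55 to 7.38) on chromosome 13 to 8.73% (6.31 to 11.7) on chromosome 19. The share with adult H3K27me3 ran from 47.1% (29.8 to 64.9) on chromosome 10 to 70.0% (50.6 to 85.3) on chromosome 13, with overlapping intervals.

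Single elements show the range. The highest-scoring element was on chromosome 14 from 68739096 to 68745820, with a width of 6725 bp and a score of 3226.07. It held 1 fetal H3K4me1 peak of 1821 bp, and 9 adult H3K27me3 peaks covered 3441 bp of it. The next was on chromosome 15 from 102973189 to 102979994 (score 3219.44), with 1096 bp of H3K4me1 and 2147 bp of adult H3K27me3. The third, on chromosome 15 from 72374286 to 72380220 (score 3183.71), lay 255.4 kb from an H3K4me3 region and had 61.7% of its length under adult H3K27me3. The fourth, on chromosome 2 from 180066563 to 180073158 (score 3161.03), had 3042 bp of adult H3K27me3 and also 1 adult H3K4me1 peak of 167 bp within it. Adult H3K27me3 covered at least 31.5% of each of these 4 elements.

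The most fetal H3K4me1 was found on chromosome 5 from 33771197 to 33780933, where 4 peaks covered 4376 bp, or 44.9% of 9737 bp. The same element had the most adult H3K27me3, with 10 peaks over 7431 bp, or 76.3%, and no adult H3K4me1. On chromosome 2 from 164762061 to 164767938, H3K4me1 covered 70.4% of 5878 bp and adult H3K27me3 27.4%. On the same chromosome from 25431682 to 25436753, 6 H3K4me1 peaks covered 78.3% of 5072 bp, adult H3K27me3 covered 74.6%, and an H3K4me3 region lay 217 bp away. These 2 elements on chromosome 2, both mostly under H3K4me1, thus differed in adult H3K27me3. The lower value was near the median of 28.8% among elements with adult H3K27me3.

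Other elements with much adult H3K27me3 held from 204 to 2776 bp of fetal H3K4me1. On chromosome 12 from 57617511 to 57626321, adult H3K27me3 covered 5452 bp, or 61.9%, of an element with 204 bp of fetal H3K4me1. On chromosome 7 from 146764749 to 146774152 it covered 5538 bp, beside 2286 bp of fetal H3K4me1 in 3 peaks. On chromosome 1 from 74992875 to 75002761 it covered 5481 bp, beside 2776 bp in 6 peaks. The widest 3 elements also included one on chromosome 9 from 98869146 to 98878998, where 16 adult peaks, the most in any element, covered 4687 bp.

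Adult H3K4me1 was longest on chromosome 8 from 125930886 to 125938576. There 6 fetal H3K4me1 peaks covered 3319 bp, and 4 adult ones covered 807 bp beside 1871 bp of adult H3K27me3. On chromosome 7 from 121859789 to 121864099, 2 adult H3K4me1 peaks covered 496 bp of an element with 374 bp of fetal H3K4me1. The next, on chromosome 11 from 117836795 to 117837349, was a low-scoring element of 555 bp (score 52.7) that lay wholly under fetal H3K4me1. An adult H3K4me1 peak of 416 bp was listed there and no adult H3K27me3.

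The widest elements with neither adult mark were on chromosome 1 from 91199474 to 91206962 (7489 bp, score 1763.72), on chromosome 14 from 35324317 to 35331202 (6886 bp, score 1548.14) and on chromosome 11 from 70545586 to 70551456 (5871 bp, score 1301.07). Their scores lay in the part of the range where 94.6% of elements had adult H3K27me3. Each held 1 fetal H3K4me1 peak, with 347, 822 and 471 bp inside the element. The first of them was one of a row of fetal H3K27me3 peaks separated by short gaps.

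The elements nearest to an H3K4me3 region were 4 bp away on chromosome 15 from 103005846 to 103007628, 13 bp away on chromosome 11 from 83254832 to 83257345 and 16 bp away on chromosome 2 from 131971762 to 131972914. They had scores of 294.31, 184.13 and 123.05, and only the second had adult H3K27me3, over 204 bp. At such distances the call as a separate element depends on where the H3K4me3 peak was ended. The farthest was on chromosome 14 from 109308395 to 109313986, 2759.9 kb from a region, with a width of 5592 bp, 315 bp of fetal H3K4me1 and neither mark in the adult. The next were on chromosome 18 from 86878779 to 86885384, at 1756.7 kb, and on chromosome 2 from 55286448 to 55290986, at 1348.1 kb, with 345 and 732 bp of adult H3K27me3.

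**Figure D5:**
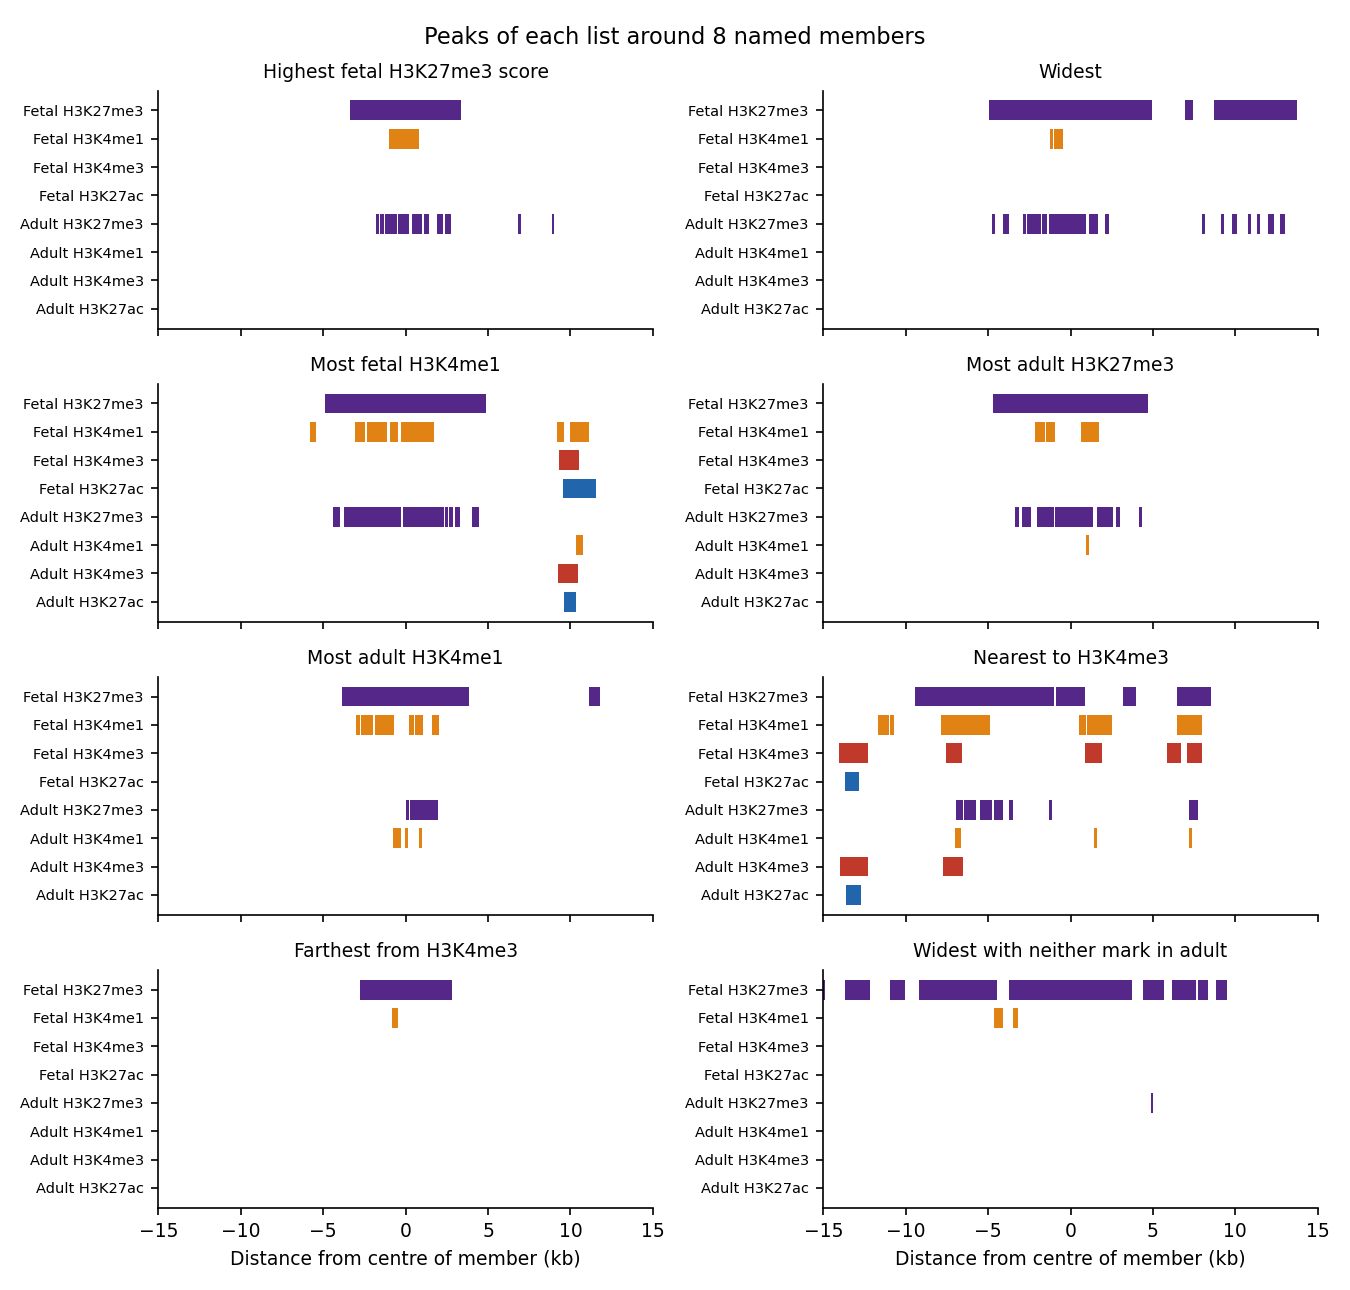
Peaks of all 8 lists (rows) within 15 kb of the centre of 8 poised elements (x axis, distance from the centre in kb). Each panel shows 1 element chosen by the feature in its title, taking the next in rank where the first already had a panel. H3K4me1 forms short islands within the element, and adult H3K27me3 is broken into narrow pieces or, in the panel nearest to H3K4me3 and both bottom panels, not listed within it.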

How the data were processed

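Per the submitters' processing notes, reads were handled with Bowtie2 2.2.2 and the build was mm9. MACS stands at the start of each peak's name in the deposited lists. The version, settings and control of the caller are not given in the sources used here. Each list is titled as combined and was taken as a call on pooled replicates. The score is the authors' value per peak, with no unit stated in the deposited lists. The 4 input samples, single replicates and read coverage were not analysed here.

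Peaks on chromosomes 1 to 19 were overlapped by at least 1 bp, and no list overlapped itself. Parts of score or width were set on the 14155 fetal H3K27me3 peaks under 10000 bp. For the comparison of fetal H3K4me1 peaks they were set on all 92339 of those peaks. Weighted differences averaged the comparison class over those parts. With 1 list per mark and stage there was no test. The members and most comparisons were chosen with earlier results of these data known.

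Elements were named by rank of score, width, length under fetal H3K4me1, adult H3K27me3 or adult H3K4me1, and distance to H3K4me3, with the widest lacking both adult marks and the peaks on either side of the width limit. Gene positions and sequences on mm9 were not used here, since the gene table at hand is on another build, so no gene names or sequences are given. Overlap and distance code was tested on simulated data against a direct count, with 200 simulated peaks for each list. Software was Python 3.11.15 with pandas 2.3.3, scipy 1.17.1, matplotlib 3.10.9 and numpy 2.4.6.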

Additional observations from a re-analysis of the deposited data

How the results depend on the processing

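Of the values recomputed under other settings, 69 moved by less than their interval (counts: within 1.5 times), 56 moved by more and 1 changed sign. With peaks at or above the median score of each list, the rule found 1835 elements, with a median width of 4019 bp, a median score of 1369.83, adult H3K27me3 at 66.9% (34.4 points above K27me3-only peaks), adult active marks at 3.78% (2.74 points), a median distance to H3K4me3 of 55.8 kb and 10.5% within 10 kb, and the difference between H3K4me1 peaks with and without H3K27me3 became -1.94 points. With equal numbers of top-ranked peaks at both stages it found 109, with adult H3K27me3 at 52.3%, adult H3K4me1 at 24.8% (24.2 points above), active marks at 21.6% (19.7 points), a distance of 13.7 kb, 46.8% within 10 kb, and adult H3K4me1 at 33.6% of their H3K4me1 peaks (8.997 points above the others).

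Merging peaks within 1 kb gave 808 elements, a width of 3494 bp, an H3K27me3 difference of 36.9 points, 26.0 kb and 24.0%. At least 200 bp of fetal H3K4me1 gave a score of 879.09 and H3K27me3 at 64.1% (44.0 points above). At least 10% covered gave 2224 bp, 451.35, 51.4% (31.2 points), active marks at 12.2% (11.4 points), 17.9 kb and 33.4%. A limit of 5000 bp gave 2182 bp, 418.87, 47.1% (29.3 points) and H3K4me1 at 4.70% (4.54 points), and no limit gave 3546.5 bp, 955.365 and 64.2% (43.7 points). No active mark within 2 kb gave 26.1 kb and 22.6%. Adult H3K27me3 over at least 10% of the element gave 52.8% and over at least 50% gave 7.74% (7.40 points). At least 200 bp of adult H3K4me1 gave 2.28% (2.22 points). Distance to adult H3K4me3 alone was 25.15 kb, and 25.2% were within 10 kb from their centre. Weighting (jointly, and for active marks, chosen after seeing the data) gave H3K27me3 differences of 3.53 (score), 9.65 (width) and 3.66 points (both). By the rule, elements found only at the median-score setting overlap an H3K4me3 or H3K27ac peak below the median of its list. The cause of the changes in this section was not tested. For active marks the 2 kb setting was run on fetal marks alone, added after seeing the data, since barring adult ones leaves none to count.

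No paired analysis was possible because each mark and stage has 1 combined list, which also prevented leaving out a replicate.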

Other observations

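Outside chromosomes 1 to 19, 3 of 244 fetal H3K27me3 peaks on the X chromosome met the rest of the rule. One had adult H3K27me3 and none had adult H3K4me1. The Y chromosome had no fetal H3K27me3 peak in the list, and none of the 20 on unplaced contigs met the rule.

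Fetal H3K27ac overlapped 66 of the 1188 fetal H3K27me3 peaks that had H3K4me1 and no fetal H3K4me3. The matching share over all fetal H3K27me3 peaks is not given here. The adult pieces of H3K27me3 within poised elements summed to 0.930 Mb, or 25.8% of the elements' length, and fetal H3K4me1 to 0.584 Mb, or 16.2%.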
